A study of Saccharomyces cerevisiae with 26 samples.

Results

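The replication fork genes described here are 10 genes of the budding yeast Saccharomyces cerevisiae, chosen by name for their products' place at the fork, out of 5978 protein-coding genes that could be placed in the deposited tables. They are POL1, POL12, PRI1, PRI2, POL2, POL30, RFA1, RFA2, RFA3 and CDC9. Their transcription was read as the mean signal per 50 bp bin over each gene, of sense-strand RNA and of Rpb3, an RNA polymerase II subunit recovered with its bound DNA by chromatin immunoprecipitation. The study asked how loss of the Forkhead transcription factors Fkh1 and Fkh2 alters replication timing and transcription, with 26 libraries in 13 groups of 2. Rpb3 and RNA were each measured in 8 libraries from 4 groups. BrdU incorporation, which marks newly made DNA, was measured in 10 libraries from 5 strains.

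The Rpb3 and RNA groups were fkh1Δfkh2Δ2C held in G1, WT held in G1, fkh1Δfkh2Δ2C growing asynchronously and WT growing asynchronously. G1 arrest was imposed with the mating pheromone α-factor for 4 hours in the rich medium YEPD at room temperature. The BrdU strains were fkh1Δfkh2Δ2C, fkh1Δfkh2Δ, fkh2Δ, fkh1Δ and WT, all released from the same arrest into hydroxyurea, which starves forks of nucleotides, with BrdU for 1 hour. The labels do not say what 2C stands for. No label says that the 2 libraries of a group came from separate cultures, so the p-values measure the spread between these libraries, which may be technical. The pheromone protease gene BAR1 was listed at 0 in all 16 Rpb3 and RNA libraries, WT included. In BrdU, fkh2Δ replicate 2 held 2.53 over BAR1, where the other 9 libraries held at most 0.0531.

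DNA synthesis at a fork starts with the polymerase α-primase complex, which lays down short RNA-DNA primers that the replicative polymerases extend while the clamp PCNA holds them on DNA. Replication protein A (RPA) coats the exposed single strands, and DNA ligase I joins the lagging-strand fragments. In budding yeast many of these genes are transcribed in a burst at the G1/S boundary under MBF, the Mbp1-Swi6 factor that binds MluI cell cycle boxes, and α-factor stops cells before that burst.

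The strains were checked first. Over FKH1, Rpb3 signal was 1.32 to 7.26 in the 4 mutant libraries and 27.7 to 41 in the 4 WT libraries. FKH2 was missing in part, with 1.21 to 4.46 over the 13 bins at its 3′ end in the mutant against 28.2 to 40 in WT, and 47.3 to 58.9 over the other 39 bins in the mutant against 27.2 to 38 in WT. The arrest was visible in both strains. FUS1, a mating fusion gene, held 185 to 271 Rpb3 signal in arrest and 24.3 to 38 in asynchronous cells, and HTA2, an S-phase histone gene, held 43 to 47.6 in arrest and 169 to 232 in asynchronous cells. The asynchronous WT Rpb3 libraries differed from each other more than the other pairs did over the fork genes, and replicate 2 stood apart. Averaged over the 9 fork genes tested, its log2 Rpb3 signal lay 0.12 above the mean of the 8 libraries, against −0.05 to 0.03 in the other 7. Results that depend on it are given with and without it.

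Per length, Rpb3 was highest on POL30, which encodes the sliding clamp PCNA and whose mean over the 8 libraries was 57, against a median of 40.1 over all placed genes. RFA3 and PRI2 followed with 51.1 and 48.1. RFA1, POL12, PRI1 and RFA2 lay between 36.6 and 32.2, and POL1, CDC9 and POL2 between 30.1 and 26.8. The gene in each place and the next one down overlapped across their libraries, so the order between neighbours is not settled. POL2 stood at percentile 9.2 of all genes and did not pass the filter that left out the lowest 10% of genes, and its differences come from the same fit with no filter.

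Sense RNA per length ordered the genes otherwise. It was highest for RFA2, at a mean of 1.54, and RFA1, PRI1 and PRI2 lay between 1.2 and 1.13, against a median gene of 0.636. CDC9 held 0.769 and POL30 0.704. RFA3, POL2, POL1 and POL12 were lowest, from 0.373 down to 0.221, and neighbours in this order also overlapped. POL30 thus stood at percentile 80.6 of all genes in Rpb3 and 52.9 in RNA, and RFA2 at 22.2 and 73.3. RNA covered these genes thinly. The share of a gene's bins with any RNA signal had a median over libraries from 13.1% for POL12 to 72.2% for RFA2, and an unread bin counts as 0.

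The RNA table carries 1 forward column name 2 times, and neither column was used. Genes on the Crick strand, which are POL12, PRI1, POL30, RFA1, RFA3 and CDC9, therefore have 1 asynchronous RNA library per strain, replicate 2, and the fit takes its spread from the other groups. POL1, PRI2, POL2 and RFA2 on the Watson strand have 2. The RNA means and percentiles above therefore weigh arrest more for Crick-strand genes, over 6 libraries, than for Watson-strand genes, over 8. The order between genes of the 2 strands is affected by this. Antisense signal was at most 0.2 in any library of any fork gene, and its mean came to 3.98% of the sense mean for PRI1 up to 17.7% for POL12.

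Arrest against asynchronous growth gave the only differences in transcription that passed, with 1 gene in Rpb3 and another in RNA. In Rpb3, POL30 rose in arrest. POL30 held 68.3 and 64.2 in arrested fkh1Δfkh2Δ2C and 79.2 and 66.3 in arrested WT, compared with 41.1 and 40.5 in asynchronous fkh1Δfkh2Δ2C and 41.2 and 55 in asynchronous WT. All 4 arrested libraries lay above all 4 asynchronous ones. Averaged over both strains the log2 difference was 0.61 (SE 0.111, limma adjusted p = 0.0236 over 5380 genes). POL30 was the only one of the 9 fork genes tested to pass, where 6.69% of all genes passed in either direction and 4.16% were higher. Libraries separated upward in this way for 7.16% of all genes.

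Within strains the POL30 difference was 0.65 in the mutant (limma adjusted p = 0.112) and 0.57 in WT (limma adjusted p = 0.132), and neither passed. These responses differed by 0.08 (SE 0.223, limma adjusted p = 0.886). The call over both strains held without asynchronous WT replicate 1 (log2 difference 0.51) or replicate 2 (0.70). In those fits many more of all genes passed as well, so they do not single out POL30. The POL30 call was lost without any 1 of the other 6 libraries, with log2 differences of 0.55 to 0.67.

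**Figure D1:**
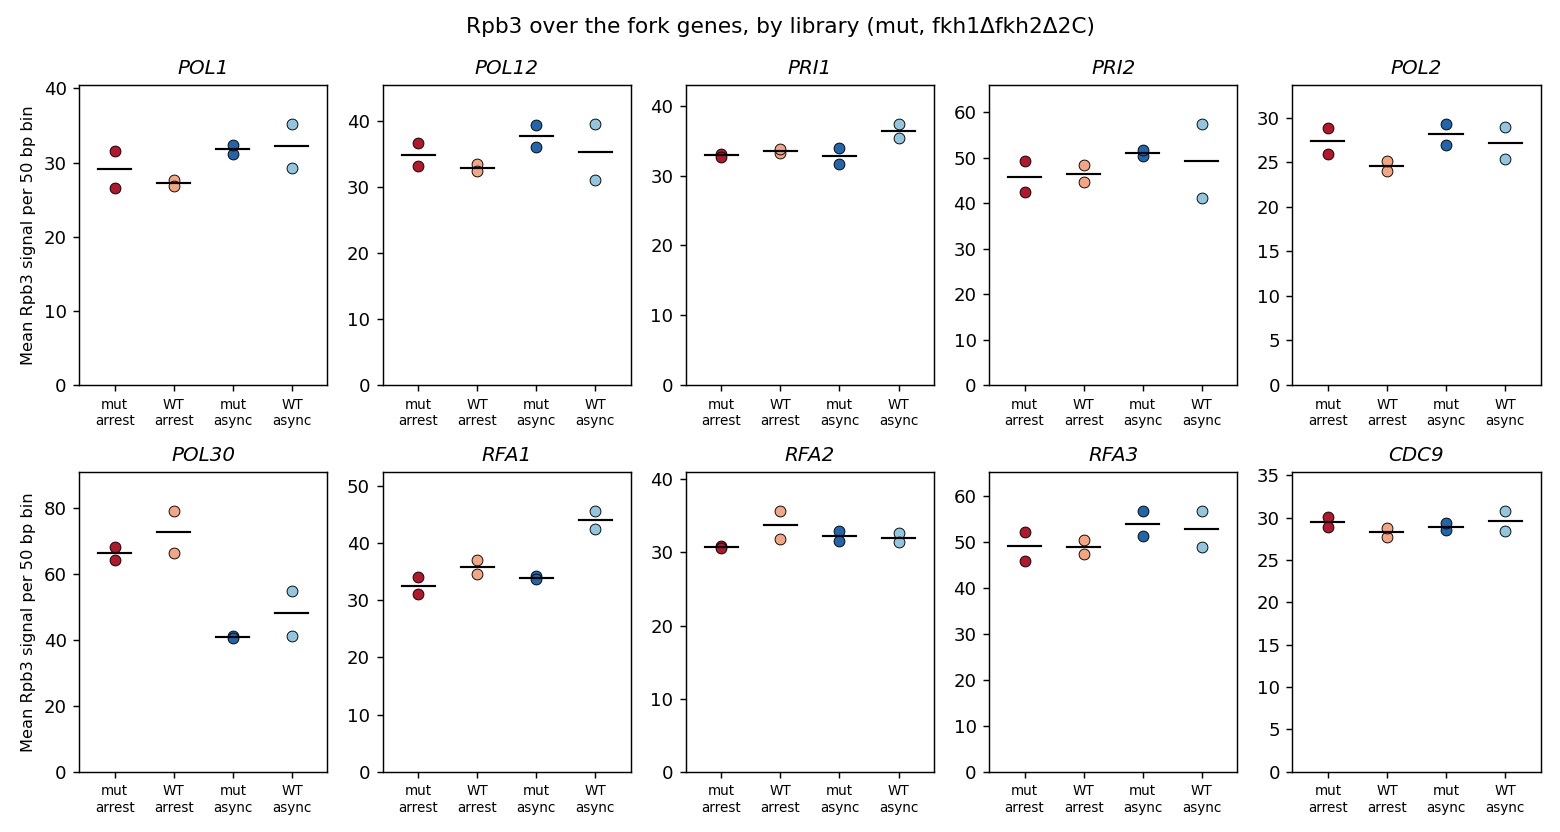
Mean Rpb3 signal per 50 bp bin over each fork gene (vertical axes, each from 0), with 1 point per library and a bar for the mean of 2 libraries; mut is fkh1Δfkh2Δ2C, and arrest stands left of asynchronous growth. The arrested POL30 points lie at 64.2 or above and the asynchronous ones at 55 or below.

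The POL30 signal was not confined to that gene. RFC5, a subunit of the clamp loader that places PCNA on DNA, is transcribed toward POL30 from the other side, with 160 bp between the genes. RFC5 held 60.8 and 77 in arrested fkh1Δfkh2Δ2C and 66.7 and 72.4 in arrested WT, compared with 41.4 and 44.4 in asynchronous fkh1Δfkh2Δ2C and 35.9 and 48.8 in asynchronous WT (log2 difference 0.65, SE 0.122, limma adjusted p = 0.0253). Rpb3 carries no strand, so polymerase on POL30 and polymerase that reads on from RFC5 cannot be told apart. In the 1000 bp after the end of POL30 the signal was 59.7 to 81.2 in arrest and 35.6 to 45.4 in asynchronous cells, as separate as over the gene itself. In the 1000 bp before its start, which include NHP6B, it was 48.3 to 59.5 in arrest and 54.1 to 74.4 in asynchronous cells, and the groups overlapped.

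**Figure D2:**
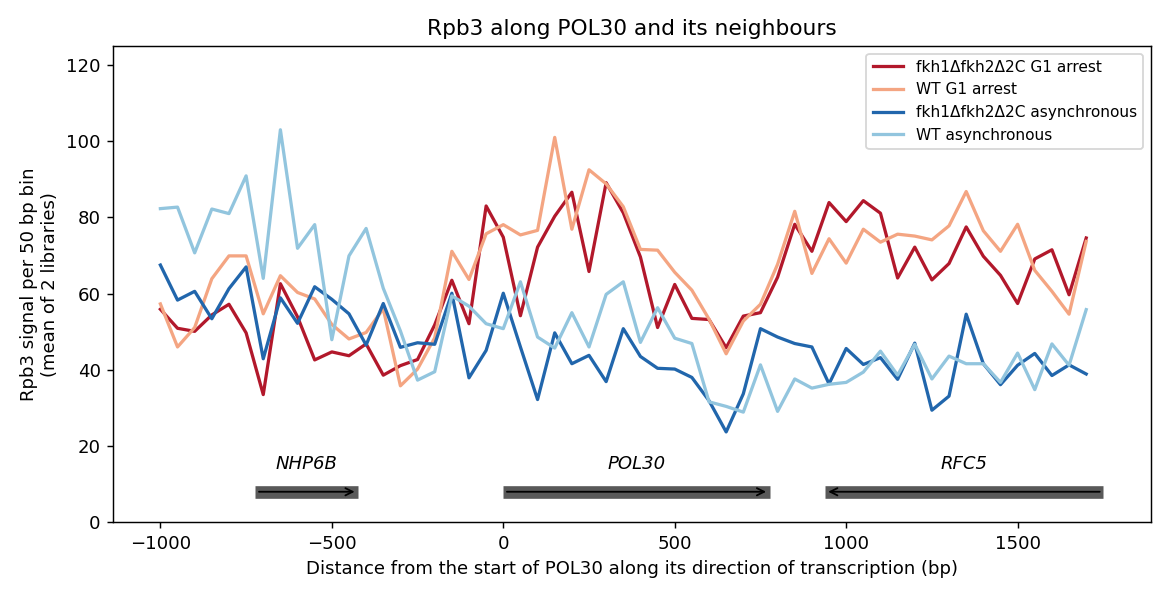
Rpb3 signal per 50 bp bin (vertical axis) against the distance in bp from the start of POL30 along its direction of transcription, as the mean of 2 libraries for each of 4 groups, with the genes drawn as bars and arrows. The arrest lines stand above the asynchronous ones over most of POL30 and over RFC5, which runs on past the right edge, but not over NHP6B.

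Within POL30 the signal leaned to the start. Per bin, its 5 bins before the end held 0.731 of the signal of its 5 bins after the start in the arrested mutant, 0.679 in arrested WT, 0.73 in the asynchronous mutant and 0.707 in asynchronous WT. The other 9 fork genes, with end stretches of equal length compared in the same way, had ratios of 0.988 to 1.96. PRI2 in the arrested mutant was the lowest of them. The highest was RFA3 in the asynchronous mutant, which rests on 2 bins at each end.

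POL30 RNA did not separate by stage. It was 0.15 and 0.723 in arrested fkh1Δfkh2Δ2C and 0.424 and 1.41 in arrested WT, compared with 0.316 in asynchronous fkh1Δfkh2Δ2C and 1.2 in asynchronous WT. The arrested pairs spread over more than the gap between stages, and the log2 difference was −0.23 (SE 0.664, limma adjusted p = 0.871).

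In RNA, RFA2, which encodes the middle subunit of RPA, fell in arrest. RFA2 RNA was 1.22 and 0.872 in arrested fkh1Δfkh2Δ2C and 0.87 and 1.03 in arrested WT, compared with 1.61 and 1.4 in asynchronous fkh1Δfkh2Δ2C and 3.02 and 2.26 in asynchronous WT. All 4 arrested libraries lay below all 4 asynchronous ones, and asynchronous WT was highest. Over both strains the log2 difference was −0.96 (SE 0.209, limma adjusted p = 0.0428), the only one of the 10 genes to pass, where 3.94% of all genes passed in either direction and 2.19% were lower. In WT alone it was −1.41 (limma adjusted p = 0.0566) and in the mutant alone −0.52 (limma adjusted p = 0.652). The difference between these responses was 0.90 (SE 0.417, limma adjusted p = 0.998). The call over both strains was lost without any 1 of the 8 libraries, with limma adjusted p of 0.0724 to 0.152 and log2 differences of −1.08 to −0.85. RFA2 Rpb3 gave no such difference, at 30.6 to 35.7 in arrest and 31.5 to 32.9 in asynchronous cells (log2 difference 0.00, limma adjusted p = 0.983).

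POL1, the catalytic subunit of polymerase α, had the largest RNA difference between stages among the 10 genes without passing. POL1 RNA was 0.179 and 0.195 in arrested fkh1Δfkh2Δ2C and 0.0764 and 0.141 in arrested WT, compared with 0.299 and 0.244 in asynchronous fkh1Δfkh2Δ2C and 0.485 and 0.465 in asynchronous WT. The stages did not overlap, and the strains changed places between them, the mutant above WT in arrest and below it in asynchronous growth. The log2 difference over both strains was −1.05 (SE 0.275, limma adjusted p = 0.0792).

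POL2, the catalytic subunit of polymerase ε, which copies the leading strand, also kept the stages apart. POL2 RNA was 0.32 and 0.22 in arrested fkh1Δfkh2Δ2C and 0.198 and 0.166 in arrested WT, compared with 0.412 and 0.41 in asynchronous fkh1Δfkh2Δ2C and 0.423 and 0.404 in asynchronous WT. The asynchronous libraries were nearly level and all above the arrested ones, with a log2 difference of −0.75 (SE 0.251, limma adjusted p = 0.137).

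POL12, the B subunit of polymerase α, had RNA of 0.143 and 0.178 in arrested fkh1Δfkh2Δ2C and 0.133 and 0.164 in arrested WT. In asynchronous cells it had 0.268 in fkh1Δfkh2Δ2C and 0.437 in WT. PRI1, the catalytic subunit of primase, had 1.01 and 0.761 in arrested fkh1Δfkh2Δ2C and 1.22 and 1.23 in arrested WT, compared with 1.47 in asynchronous fkh1Δfkh2Δ2C and 1.5 in asynchronous WT. Neither gene's arrested libraries overlapped its asynchronous ones. Neither passed (POL12 −0.91, limma adjusted p = 0.222; PRI1 −0.49, limma adjusted p = 0.329).

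Of the 10 genes, 5 thus had all arrested RNA libraries below all asynchronous ones and 0 had them above. Among the 4 Watson-strand genes these were POL1, POL2 and RFA2, where 12.4% of all Watson-strand genes separated downward, and among the 6 Crick-strand genes POL12 and PRI1, where 19.3% of Crick-strand genes did, with fewer asynchronous libraries. The other 5 genes overlapped between stages. RFA1 had a log2 difference of −0.58, CDC9, the ligase, of −0.23, RFA3 of 0.04 and PRI2 of 0.08, with limma adjusted p of 0.261 to 0.973. Over the 10 genes the median was −0.54 and 8 were lower, beside a median of −0.17 over all genes tested. RFA3, just above 0, stood at percentile 66.5 of all differences, so most genes tested were lower too, up to 66.5% of them.

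**Figure D3:**
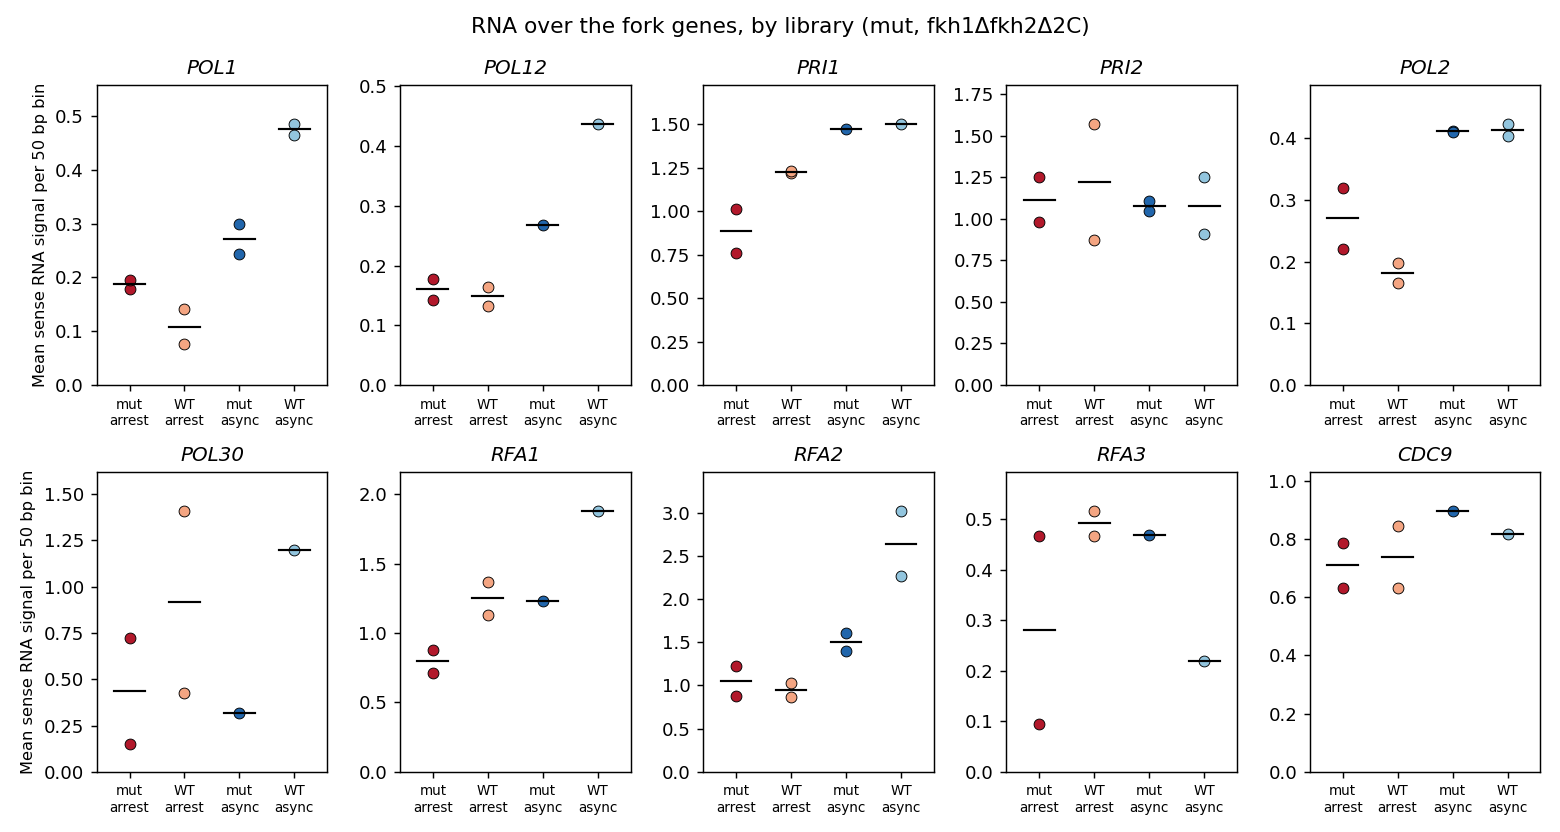
Mean sense RNA signal per 50 bp bin over each fork gene (vertical axes, each from 0), with 1 point per library and a bar for the group mean; mut is fkh1Δfkh2Δ2C, and Crick-strand genes have 1 asynchronous library per strain. Arrested points lie below asynchronous ones for POL1, POL12, PRI1, POL2 and RFA2.

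In Rpb3 the same 5 genes gave log2 differences between stages of −0.16 (POL1), −0.09 (POL12), −0.05 (PRI1), −0.08 (POL2) and 0.00 (RFA2), and each overlapped between stages. Over the 9 genes tested the Rpb3 median was −0.09, with 7 lower, beside −0.02 over all genes. CDC9, just below 0, stood at percentile 51.5 of all differences and RFA2, just above 0, at 58.1. Between 51.5% and 58.1% of all genes tested were thus lower. Without asynchronous WT replicate 1, POL1 and PRI2 also passed as lower in arrest (both −0.22, limma adjusted p = 0.0381 and 0.0452), among 1579 genes called. Without replicate 2, RFA1 did (−0.19, limma adjusted p = 0.0326), among 1677.

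Other genes of the fork and of the same G1/S programme were counted in the same way. Of 26 other fork genes, 24 were tested in Rpb3. RFC4 and RFC5, both of the clamp loader, rose (log2 0.71 and 0.65, limma adjusted p = 0.00487 and 0.0253), 0 fell, and the median was −0.06, where 4.16% of all genes rose and 2.53% fell and the median gene stood at −0.02. In RNA 26 were tested, RAD27, the flap nuclease of Okazaki fragments, and RNH201, a ribonuclease H2 subunit, fell (−1.69 and −1.71, limma adjusted p = 0.0203 and 0.0306), 0 rose, and 24 of 26 were lower, with a median of −0.48, where 1.75% of all genes rose and 2.19% fell and the median gene stood at −0.17. Of 17 other known MBF targets, 14 were tested in Rpb3, where 2 rose, CDC45 (0.72) and MSH6 (0.28), and 5 fell, with RNR1 (−1.45) and YOX1 (−1.03) the furthest, and 11 of 14 were lower, with a median of −0.18. In RNA 16 were tested, 3 fell, with RNR1 (−2.72) and MCD1 (−2.61) the furthest, 0 rose, and all 16 were lower, with a median of −0.81. Beside these counts of lower genes, between 51.5% and 58.1% of all genes tested were lower in Rpb3. In RNA most were, up to 66.5%. Of 6 regulators of the G1/S programme itself, STB1 fell in RNA (−1.52, limma adjusted p = 0.046) and 0 passed in Rpb3. With each strain taken alone, limma called 0 of the 10 fork genes between stages. In Rpb3 2.32% of all genes passed in the mutant and 3.87% in WT, and at an unadjusted p under 0.05 there were POL30 in the mutant, among 743 of 5380 genes, and POL30 and RFA1 in WT, among 906. In RNA 0.632% passed in the mutant and 1.93% in WT, and at an unadjusted p under 0.05 there were 0 fork genes in the mutant, where 496 of 5380 genes did so, and POL1, POL2 and RFA2 in WT, among 991.

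**Figure D4:**
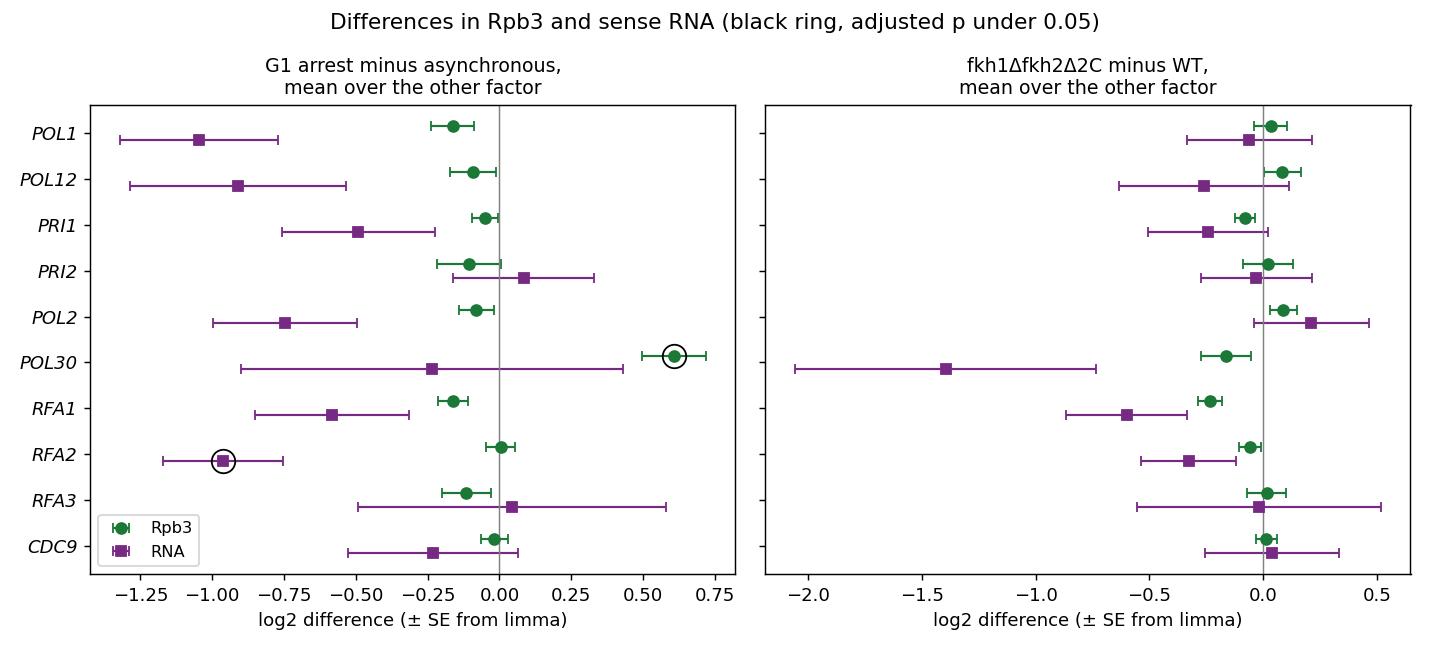
Log2 differences (horizontal axis, with SE from limma) in Rpb3 (circles) and sense RNA (squares) for the 10 fork genes, arrest minus asynchronous on the left and fkh1Δfkh2Δ2C minus WT on the right; POL2 Rpb3 is from the fit with no filter. Black rings mark POL30 Rpb3 at 0.61 and RFA2 RNA at −0.96, the 2 differences that passed.

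Between strains none of the 10 genes passed in limma in either assay, and at an unadjusted p under 0.05 there were RFA1 in Rpb3, in asynchronous cells and over both stages, and RFA2 in RNA, in asynchronous cells. In Rpb3 0% of 5380 genes passed in limma for the mutant against WT in asynchronous cells, in arrest, or over both stages. At an unadjusted p under 0.05 there were 1267, 206 and 875 genes. FKH1, deleted in the mutant, lay below the low-signal filter and was not among the genes tested. In asynchronous cells the call depended on 1 library. Without asynchronous WT replicate 2, 2607 genes passed, with RFA1 (−0.39, limma adjusted p = 0.00563) lower and POL12 (0.25, limma adjusted p = 0.0442) and PRI2 (0.29, limma adjusted p = 0.0491) higher in the mutant among them. Without asynchronous WT replicate 1, 20 genes passed and 0 of the 10.

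RFA1, which encodes the large, DNA-binding subunit of RPA, was the only fork gene whose mutant and WT Rpb3 libraries did not overlap over both stages. RFA1 Rpb3 was 34.1 and 31 in arrested fkh1Δfkh2Δ2C and 37 and 34.6 in arrested WT, and 34.2 and 33.6 in asynchronous fkh1Δfkh2Δ2C against 45.6 and 42.5 in asynchronous WT. The 4 mutant libraries lay below the 4 WT ones, as was the case for 4.85% of all genes. The log2 difference was −0.34 in asynchronous cells (SE 0.0743, limma adjusted p = 0.195) and −0.13 in arrest (SE 0.0743, limma adjusted p = 1). Over both stages it was −0.23 (limma adjusted p = 0.22). Without asynchronous WT replicate 2, which leaves 1 library in that group, it was −0.26.

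RFA1 RNA lay lower in the mutant within each stage, with 2 libraries per strain in arrest and 1 in asynchronous growth, but not across stages. The share of all genes with this order was not counted. It was 0.879 and 0.715 in arrested fkh1Δfkh2Δ2C and 1.13 and 1.37 in arrested WT, and 1.23 in asynchronous fkh1Δfkh2Δ2C against 1.88 in asynchronous WT. The log2 difference over both stages was −0.60 (SE 0.267, limma adjusted p = 0.713).

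The remaining fork genes differed little in Rpb3 between strains. Their log2 differences over both stages lay between −0.16 for POL30 and 0.09 for POL2, with limma adjusted p of 0.342 to 0.92. PRI1 was below WT in both stages taken one at a time, with 33.1 and 32.7 in arrested fkh1Δfkh2Δ2C against 33.3 and 33.8 in arrested WT, and 31.7 and 33.9 in asynchronous fkh1Δfkh2Δ2C against 37.4 and 35.4 in asynchronous WT. Its difference over both stages was −0.08 (limma adjusted p = 0.342). How many of all genes kept such an order in both stages was not counted.

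In RNA 0 of the 10 genes passed between strains, where 0% of genes passed in asynchronous cells in limma (208 at an unadjusted p under 0.05) and 0.0558% in arrest and over both stages. POL30 had the largest difference over both stages, −1.40 (SE 0.664, limma adjusted p = 0.746), on 3 libraries per strain that overlapped. Over the 10 genes the median was −0.15 and 8 were lower, beside a median of 0.10 over all genes. RFA3, just below 0, stood at percentile 37.2 of all differences and CDC9, just above 0, at 43.6. Between 37.2% and 43.6% of all genes tested were thus lower. The deleted gene FKH1 was tested in RNA and did not pass between strains either, with a log2 difference of −2.61 over both stages. The response to arrest differed between strains for 0% of all genes in both assays in limma, with 288 genes in Rpb3 and 221 in RNA at an unadjusted p under 0.05.

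In Rpb3, 5371 genes outside the set were compared with the fork genes' average over the 8 libraries. The highest of so many correlations are high by selection, so they cannot be set against those of the fork genes. By Pearson r with the mean of the 9 centred log2 profiles, the nearest genes outside the set were KAE1 (0.951), PUS2 (0.942), ISM1 (0.933), SOK2 (0.929) and TRM5 (0.926). The fork genes themselves had r of 0.077 for RFA2 to 0.789 for PRI2. All points share the same libraries, the average is highest in asynchronous WT replicate 2, and no test is attached.

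Replication of the fork genes' own DNA was read from BrdU. These libraries did not show the FKH2 gap that Rpb3 showed. Over the same 13 bins at the 3′ end of FKH2 they held 24.3 and 12.6 in fkh1Δfkh2Δ2C, 15.3 and 8.53 in fkh1Δfkh2Δ, 2.51 and 2.31 in fkh2Δ, 8.04 and 7.63 in fkh1Δ, and 3.71 and 6.54 in WT. Both libraries labelled fkh1Δfkh2Δ2C thus held more there than WT, and in all 10 libraries the value was below that over the rest of FKH2. Mean BrdU signal over FKH1 was 2.76 in fkh1Δfkh2Δ2C, 2.7 in fkh1Δfkh2Δ and 5.3 in fkh1Δ, against 22.1 in fkh2Δ and 21.1 in WT. The strains of these libraries are given as labelled. FKH1 was lower wherever the label carries fkh1Δ, but it did not come down to BAR1, whose WT mean was 0.00843. POL30, which no label lists as deleted, held means of 2.98 in fkh1Δfkh2Δ2C and 2.26 in WT, close to the 2.76 and 2.7 over FKH1. The lower FKH1 signal is thus no check of the deletion, and there is none at FKH2. Why signal remained at the 3′ end of FKH2 was not tested.

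Of the 10 genes, RFA1 on chromosome I carried strong signal and RFA3 on chromosome X some, and the other 8 held 1.01 to 3.45 in every library of the 5 strains. RFA1 held 110 and 89.1 in fkh1Δfkh2Δ2C, 111 and 113 in fkh1Δfkh2Δ, 56 and 63.7 in fkh2Δ, 90.6 and 95.9 in fkh1Δ, and 63.9 and 61 in WT. The libraries labelled fkh1Δfkh2Δ2C lay above WT, and RFA1 rose in them by 0.67 on the log2 scale (SE 0.125, limma adjusted p = 0.0011). The rise was 0.51 (limma adjusted p = 0.00265) without the library labelled fkh1Δfkh2Δ2C replicate 1 and 0.82 (limma adjusted p = 8.7e-05) without replicate 2. It passed without any 1 of the 10 BrdU libraries, with limma adjusted p of 8.7e-05 to 0.00787.

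RFA3 held 7.83 and 7.73 in fkh1Δfkh2Δ2C, 7.88 and 7.9 in fkh1Δfkh2Δ, 11.4 and 13.1 in fkh2Δ, 12.4 and 12.2 in fkh1Δ, and 10.7 and 10.2 in WT. RFA3 fell in the libraries labelled fkh1Δfkh2Δ2C by 0.42 on the log2 scale (SE 0.146, limma adjusted p = 0.0378). It no longer passed without 1 of the WT, fkh1Δ, fkh2Δ or fkh1Δfkh2Δ libraries, with limma adjusted p of 0.0537 to 0.117, and it did without the library labelled fkh1Δfkh2Δ2C replicate 1 (limma adjusted p = 0.0422) or replicate 2 (limma adjusted p = 0.0494). These were 2 calls among 9 fork genes tested, where 44.1% of all genes passed, 24.1% higher and 19.9% lower. RFA2 did not pass the BrdU filter, with a difference of 0.12 in the fit with no filter (limma adjusted p = 0.626). Since BrdU signal changes slowly, a gene's value reflects the replicated stretch around it. Of 23 other fork genes tested, 8 rose, with DPB3 (1.60) and TOF1 (1.5) the furthest, and CSM3 alone fell (−1.71).

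**Figure D5:**
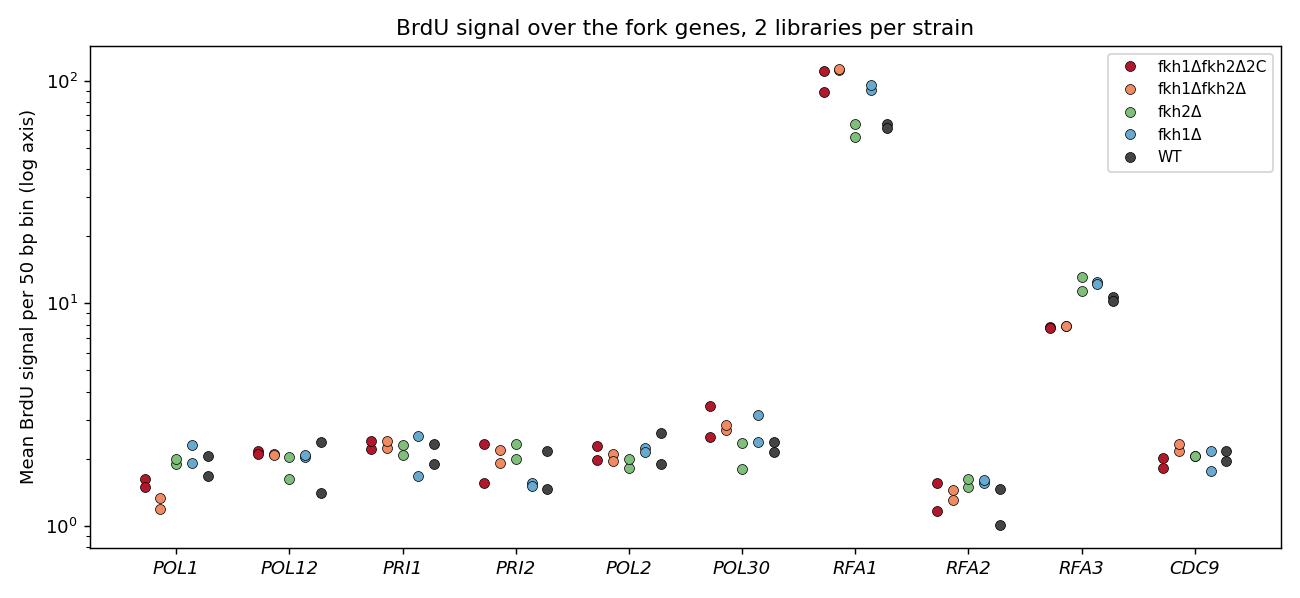
Mean BrdU signal per 50 bp bin over each fork gene (vertical log axis) in 2 libraries of each of 5 strains, mutants left of WT. RFA1 lies at 56 to 113 and RFA3 at 7.73 to 13.1, and the other 8 genes at 3.45 or below.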

How the data were processed

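The authors deposited 3 tables of normalized signal per 50 bp bin, per the file headers, for BrdU, stranded RNA and Rpb3. Neither the headers nor the labels name an aligner, a genome build or a method of normalization. Libraries of an assay share nearly 1 distribution, so the values cannot show a change of the total, and depth is unknown, so no counting interval could be given. Gene names, order, strand and length came from RefSeq assembly R64. Genes were placed by fitting small shifts to the stranded RNA. Its common offset of 1 bin was subtracted from the gene positions, because the FKH1 gap in mutant Rpb3 fits best without it. RNA was read at these positions too, 1 bin from where it fits best, except in the alternative with genes moved by the RNA offset. Of 6002 genes 5978 were placed, and 226 on chromosome XI, PRI2 among them, were shifted by 7 bins. Sense signal exceeded antisense signal for 94.3% of genes, against 83.5% and 80.3% when moved by 10 bins. The shifts were fitted to the same sense-over-antisense contrast, so this is no independent check of the placement. R64 coordinates are not printed. W-strand RNA was read from R columns and C-strand RNA from F columns, and 2 columns were not used.

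Mean signal per gene was tested as log2(signal + 10% of the median gene), with pseudocounts of 3.93 for Rpb3, 0.062 for RNA and 0.27 for BrdU, so differences of low genes are understated. The lowest 10% of genes were left out and 5380 tested per assay by limma (version 3.58.1, R 4.3.3), fitting all libraries of an assay at once with the variance trend on, 2-sided, Benjamini-Hochberg adjusted, at a threshold of 0.05. The procedure was tested on simulated data. The fork genes, the other lists and the genes named (the 2 largest calls per list and direction, and the 5 nearest Rpb3 profiles) were chosen with earlier results of these data known. Alternatives were other pseudocounts, no filter, trimmed genes, unshifted positions, quantile normalization, a replicate block, each library left out and, chosen after seeing the data, genes moved by the RNA offset. Groups follow the strain tags, except that the second fkh2Δ BrdU library, tagged fkh1Δ, follows its title.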

Additional observations from a re-analysis of the deposited data

Results flagged for a closer look

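POL1 RNA differed between strains in opposite directions in the 2 stages. In arrest both fkh1Δfkh2Δ2C libraries (0.179 and 0.195) lay above both WT libraries (0.0764 and 0.141), and in asynchronous growth both fkh1Δfkh2Δ2C libraries (0.299 and 0.244) lay below both WT libraries (0.485 and 0.465). The difference of the responses was 1.26 on the log2 scale (SE 0.55, limma adjusted p = 0.998). How many of all genes changed direction in this way was not counted, here or for RFA3 below.

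RFA3 RNA moved in opposite directions with arrest in the 2 strains. In fkh1Δfkh2Δ2C it was 0.0938 and 0.468 in arrest, below the 0.469 of the asynchronous library, and in WT 0.468 and 0.517 in arrest, above the 0.22 of the asynchronous library. The difference of the responses was −1.86 (SE 1.07, limma adjusted p = 0.998). With 1 asynchronous library per strain, and 0.468 against 0.469 on one side, this order rests on single libraries.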

How the results depend on the processing

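Leaving out 1 library changed how many fork genes passed. Such a fit leaves 1 library in a group. In the Rpb3 fits described above without an asynchronous WT library, the number of all genes that passed changed as well. For the other fits that number is not given. The counts that follow are therefore not set against a background and do not single out the fork genes. In Rpb3 the count ranged from 0 to 3 for the mutant against WT in asynchronous cells and 0 to 2 over both stages, and for arrest against asynchronous growth 0 to 2 in WT, 0 to 1 in the mutant and 0 to 3 over both strains. In RNA, arrest over both strains gave 0 in each of these 8 fits. The BrdU count ranged from 1 to 2, and without WT replicate 1 the second was POL12 (0.52, limma adjusted p = 0.0218), in place of RFA3. The RFA2 RNA call over both strains was also lost, leaving 0, with a pseudocount of 1% of the median (limma adjusted p = 0.0509), no filter (0.058), 100 bp trimmed from each gene end (0.0704) and quantile normalization (0.0607). Arrest in WT alone gave 1, RFA2, with a pseudocount of 100% of the median (−1.05, limma adjusted p = 0.0429) and with genes moved by the RNA offset, an alternative chosen after seeing the data (−1.46, limma adjusted p = 0.0449). The cause was not tested.

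The deviations of same-numbered libraries had correlations of 0.02 to 0.46 in Rpb3, positive in all 6 pairs of groups, −0.03 to 0.14 in RNA and −0.22 to 0.25 in BrdU. In none of the assays was every pair over 0.1, so the numbers were not taken to pair the libraries. With replicate number as a block the BrdU count was 1 (RFA3 −0.42, limma adjusted p = 0.0566), and the POL30 and RFA2 calls in arrest were both at limma adjusted p = 0.0454. Results were not reversed under any alternative run. With 2 libraries per group, unknown depth and sparse RNA, differences that did not pass are not shown to be absent.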
